A study of Mus musculus with 6 samples.

Results

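The genes described here encode the enzymes that place or remove methyl groups on histone lysines, apart from the drug target LSD1 (Kdm1a) and its relative LSD2. They were picked by symbol with no threshold on their values, from a list drawn up with earlier results of these data known: 41 symbols were listed, and 40 of the 15035 rows of the table of normalised read counts carried one of them. The symbols Kmt5a and Setd8 stand for the same gene, which the table lists as Setd8, so the 40 rows cover every listed enzyme. Of these, 24 belong to methyltransferase families (writers) and 16 to demethylase families (erasers). The cells were BALB/c mouse bone marrow cells turned into leukemia cells by retroviral expression of mutant CSF3R (the G-CSF receptor) and mutant CEBPA (a myeloid transcription factor). The comparison is between 3 RNA-seq libraries of cells given 4 nM GSK-LSD1, an inhibitor of LSD1, and 3 libraries of cells given the solvent DMSO, both for 48 h in IMDM with serum, and both groups carry the same mutant genes. The sources used here do not name the vectors, the number of transduced cultures or the animals behind the 3 libraries of a group, and p-values therefore reflect only how far these libraries differed among themselves, which may be technical.

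Methyltransferases move a methyl group from S-adenosylmethionine to a lysine. Most carry a SET domain, and DOT1L does not. LSD1 is a flavin-dependent oxidase that works on histone H3 lysine 4 (H3K4). The demethylases described here instead share a JmjC domain that uses iron and 2-oxoglutarate. Some of these demethylases can also act on trimethylated lysines. Methylated H3K4 marks active promoters and enhancers, H3K36 and H3K79 methylation marks transcribed gene bodies, and methylated H3K9 and H3K27 mark repressed chromatin. Several of these enzymes are altered in human myeloid leukemia, among them KMT2A through fusions, and EZH2, SETD2 and KDM6A through mutations that reduce their function.

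Taking each library's smallest value as a single read, library totals ran from 9572638 to 10199533 reads. All 9 myeloid marker genes listed for these cells had values above 0. Their summed value was 19811 to 20332 in GSK-LSD1 libraries, against 14608 to 16013 in DMSO libraries. Kit was the lowest of the 9, averaging 28.1 with GSK-LSD1 and 29.6 with DMSO. Mpo was the highest, averaging 8952 with GSK-LSD1 and 7390 with DMSO. Csf3r and Cebpa are among the 9, and whether reads of the introduced mutant genes enter their values was not tested. The 9 did not move together. Elane averaged 56.5 with GSK-LSD1 and 107 with DMSO, whereas Cd34 averaged 1685 with GSK-LSD1 and 299 with DMSO. Of the B cell markers only Cd79a was analysed, with at most 4.08 in GSK-LSD1 libraries and 0 in DMSO libraries. The T cell markers Cd3g and Lck summed to 91.1 to 95.9 with GSK-LSD1 and 115 to 141 with DMSO, and 4 erythroid markers to 20.4 to 30.0 with GSK-LSD1 and 139 to 189 with DMSO. Megakaryocyte markers summed to 1669 to 1729 with GSK-LSD1 and 1886 to 2026 with DMSO, most of it from Itga2b. The sum of 2 stromal markers was 333 to 357 with GSK-LSD1 and 249.7 to 254 with DMSO. Pecam1, an endothelial marker also made by leukocytes, had 4334 to 4443 with GSK-LSD1 and 3531 to 4002 with DMSO. The part of other cell types in the values below was not tested, and in bulk RNA fewer cells of a type and less RNA per cell cannot be told apart. Kdm1a itself had 1215, 1245 and 1219 normalised counts in GSK-LSD1 libraries, against 1309.6, 1192 and 1268 in DMSO libraries (adjusted p = 0.631).

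With GSK-LSD1, 14 of the 40 enzyme genes rose, 7 fell and 19 did not pass the test (limma on log2(value + 1), adjusted p under 0.05 over all 11588 genes tested). Among all genes tested, 20.6% rose and 20.5% fell. All 40 members passed the filter on low values. The changes were small with 1 exception: Kdm7a rose 2.63-fold, and the other 20 members past the threshold differed by 1.09-fold to 1.33-fold in either direction. Rises were found for 4 of 7 H3K4 writers, 4 of 8 H3K9 erasers, both H3K27 erasers, 1 of 2 H3K27 writers and the 3 H3K36 writers among the members (Setd2, Nsd1 and Ash1l). Falls were found for 2 of 3 H3K4 erasers, 2 of 6 H3K9 writers, 1 H3K4 writer, 1 of 2 H3K36 erasers and Kdm8. The median log2 fold change of the 40 members was 0.09, against -0.01 over all genes tested. Every GSK-LSD1 library lay above every DMSO library for 18 members and below for 7, while this held for 24.7% and 24.8% of all genes tested. Without the mean-variance trend in the test, 6 members rose (15% of them, against 17.3% of all genes) and 5 fell (12.5%, against 14.3% of all genes), so the higher share of rises among members was not seen in that setting. There, Kdm3b, Kdm4a, Kdm6a, Kdm6b, Kmt2d, Nsd1, Setd1b, Setd2, Setd1a, Suv39h1 and Suv39h2 did not pass while Smyd2 fell. When single libraries were left out, 11 to 17 members rose, against 17.7% to 20.4% of all genes, and 4 to 8 fell, against 16.9% to 19.8% of all genes. The number that fell was 4 without GSK-LSD1 replicate 2, where 17.3% of all genes fell, and 4 without DMSO replicate 1, where 19.6% did.

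**Figure D1:**
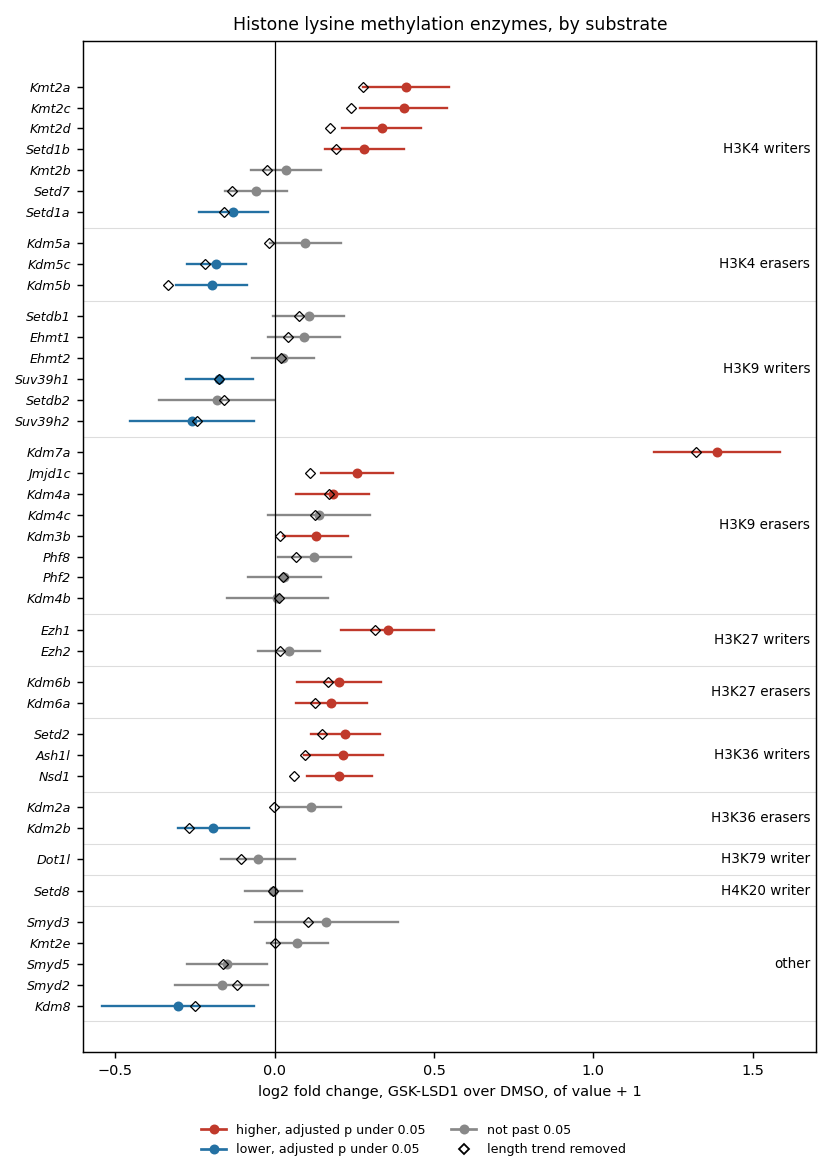
Log2 fold change of each of the 40 enzyme genes, GSK-LSD1 over DMSO, on the log2(value + 1) scale, grouped by the lysine the enzyme acts on. Dots are limma estimates with 95% intervals (n = 3 libraries per group), coloured by call, and open diamonds are the estimates with the length trend of each library removed. Kdm7a stands at 1.39, and the other members lie between -0.30 and 0.41.

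Fold changes in these libraries went with transcript length, and most of these enzymes have long transcripts. The median merged exon length was 8.54 kb for the members and 4.41 kb for all genes tested with a length. Over the 11486 genes tested that had a length, the median log2 fold change was -0.10 in the shortest 10% and 0.10 in the longest 10%, which begins at 9.77 kb. Among these longest genes 36.1% rose and 12.1% fell. They included 16 of the 40 members, of which 10 rose and 2 fell, with a median log2 fold change of 0.21. Spearman's rho between log2 fold change and length was 0.18 across all these genes and 0.58 across the members, a description across genes that share the same libraries. The libraries of a group also differed in this respect. For the longest 10% of genes, the median log2 deviation from the gene's mean was 0.04, 0.05 and 0.06 in GSK-LSD1 libraries, against -0.0031, -0.08 and -0.05 in DMSO libraries, so DMSO replicate 1 lay between the treated libraries and the other DMSO libraries. When the trend with length was removed from each library, an alternative chosen after the values were seen, 10 members rose and 8 fell, against 20.3% and 19.7% of all genes. All 10 were among the 14, and the 8 were 6 of the 7 with Setd7 and Smyd5. The median over the members was then 0.02. What produced the trend with length was not tested.

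**Figure D2:**
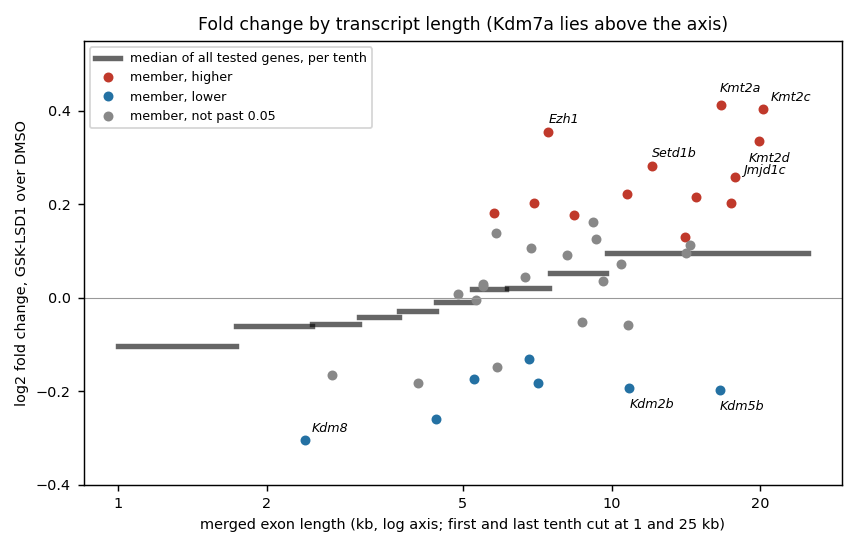
Log2 fold change (GSK-LSD1 over DMSO) of the enzyme genes against merged exon length in kb on a log axis. Black bars give the median of all tested genes in each of 10 length bins, which climbs to 0.10 in the longest bin, where 10 of 16 members rose. Kdm7a (1.39) is above the axis and not drawn.

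**Figure D3:**
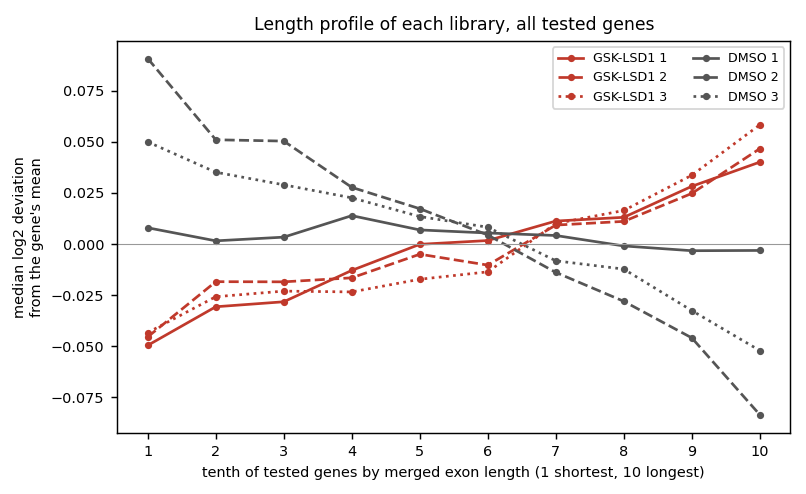
Median log2 deviation from each gene's mean over the 6 libraries, for 10 equal bins of the tested genes by merged exon length, with 1 line per library. The 3 GSK-LSD1 libraries slope upward, DMSO replicates 2 and 3 slope downward, and DMSO replicate 1 is nearly flat.

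The largest change among the erasers, and among all members, was that of Kdm7a (chromosome 6, 39136623 to 39206789, GRCm38), which encodes a demethylase with a PHD finger that reads methylated H3K4 and a JmjC domain that acts on H3K9 and H3K27. Kdm7a had 296, 301 and 313 normalised counts in GSK-LSD1 libraries, against 124, 108 and 114 in DMSO libraries. The lowest treated library was more than double the highest DMSO library. The log2 fold change was 1.39 (SE 0.0978, limma adjusted p = 2.98e-14), and 1.32 with the length trend removed. A rise of at least 2-fold past the threshold was seen for 4.51% of all genes tested. Its call held in every alternative tried. Over 287 bp the exons of Kdm7a overlap those of an antisense RNA, 4930599N23Rik. This RNA had 24.5, 31.1 and 18.5 normalised counts in GSK-LSD1 libraries and 8.79, 3.96 and 2.99 in DMSO libraries. It was also called higher (log2 fold change 2.12, adjusted p = 1.49e-05 by limma). All its DMSO values lay below the minimum of the filter on low values, so it was tested through its GSK-LSD1 values alone. The size of its change rests on these low DMSO values. Whether reads were assigned by strand is not given in the sources used here, so reads in the shared stretch cannot be told apart.

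Kdm7a has 2 close relatives in the table. Phf8, which removes methyl groups from H3K9 and H4K20, had 884, 896 and 859 normalised counts in GSK-LSD1 libraries, against 839, 791 and 791 in DMSO libraries, without overlap. Its log2 fold change of 0.12 (95% interval 0.01 to 0.24) missed the threshold (limma adjusted p = 0.072). Phf8 passed as higher without DMSO replicate 1 (limma adjusted p = 0.0433) and with equal totals (0.0393). Phf2, another H3K9 demethylase, had 1077, 1073 and 1169.9 in GSK-LSD1 libraries, against 1173, 1039 and 1042 in DMSO libraries, which overlap (log2 fold change 0.03, 95% interval -0.08 to 0.14, adjusted p = 0.702). To set the promoter of the gene that rose beside that of a relative that did not pass, the 250 bases before the RefSeq start of Kdm7a (GRCm38.p6, chr6:39206774-39207023, minus strand) and Phf8 (chrX:151520422-151520671, plus strand) are given, 5′ to 3′ on the gene's strand, with capitals where a searched motif occurs.
Kdm7a: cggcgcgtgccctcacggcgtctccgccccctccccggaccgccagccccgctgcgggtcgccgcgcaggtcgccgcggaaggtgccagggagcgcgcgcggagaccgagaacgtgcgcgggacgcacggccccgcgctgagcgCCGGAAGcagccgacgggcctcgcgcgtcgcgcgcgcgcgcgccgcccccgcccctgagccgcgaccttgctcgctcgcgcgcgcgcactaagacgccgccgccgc
Phf8: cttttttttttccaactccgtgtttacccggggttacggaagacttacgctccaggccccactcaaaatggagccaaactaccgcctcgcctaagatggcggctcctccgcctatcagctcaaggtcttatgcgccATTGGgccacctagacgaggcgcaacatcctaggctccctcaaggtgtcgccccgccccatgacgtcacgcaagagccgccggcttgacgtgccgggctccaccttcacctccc
The motifs searched on both strands were AATCAC for GFI1, a repressor that recruits LSD1, GAGGAAGT for PU.1, CCGGAAG for ETS factors, TTGCNNAA for C/EBP, CCAAT for NF-Y and TTTGGCGC for E2F. The capitals in Kdm7a are an ETS match 106 bases before the start, and such a match is in 6.91% of the 32851 promoters of the table. In Phf8 they are an NF-Y match on the other strand 114 bases before the start, present in 33.8% of all promoters. The Kdm7a window holds 56 CpG dinucleotides and the Phf8 window 19, with a median of 6.0 over all promoters and 23.5 over those of the 29 members matched in the promoter table. The ETS match was in 3 of the 29 members with a promoter in the table (Setdb1, Kdm7a and Dot1l). Of these, Setdb1 and Dot1l did not pass. GFI1 matches were in 9.14% of all promoters and in 3 of the 29 members with a promoter in the table (Kdm5b, Jmjd1c and Setd8). C/EBP matches were in 9.56% of all promoters and in 1 of the 29 (Suv39h1), and the PU.1 and E2F letters, in 2.44% and 0.417% of all promoters, were in none of them. In 661 promoters matches to different motifs overlapped.

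Of the other H3K9 erasers, Jmjd1c, Kdm4a and Kdm3b rose and Kdm4b and Kdm4c did not pass. Jmjd1c, a relative of the KDM3 demethylases that is known from myeloid leukemia with KMT2A fusions, had 1019, 971 and 949.9 normalised counts in GSK-LSD1 libraries, against 827, 837 and 793 in DMSO libraries (log2 fold change 0.26, SE 0.0554, adjusted p = 0.000267). With the length trend removed it was 0.11 and did not pass (adjusted p = 0.113). Kdm4a, an eraser of H3K9 and H3K36 trimethylation, had 1232, 1117 and 1101 in GSK-LSD1 libraries, against 1026, 1054 and 959.6 in DMSO libraries (log2 fold change 0.18, adjusted p = 0.00877). Its treated libraries were all higher, but without GSK-LSD1 replicate 1 its adjusted p was 0.103. Kdm3b, a KDM3-family H3K9 demethylase, had 1574, 1575 and 1590.3 in GSK-LSD1 libraries, against 1536, 1419 and 1383 in DMSO libraries (log2 fold change 0.13, adjusted p = 0.0379). That call was lost without GSK-LSD1 replicate 1, 2 or 3 (adjusted p = 0.0824, 0.0862 and 0.113), without DMSO replicate 2 or 3 (0.102 and 0.124) and with the length trend removed (0.805). Over 3468 bp its exons overlap those of a gene on the other strand.
The relatives of Kdm4a gave overlapping groups. Kdm4b had 366, 330.2 and 357 normalised counts in GSK-LSD1 libraries, against 362, 368 and 319 in DMSO libraries (log2 fold change 0.01, 95% interval -0.15 to 0.17). Kdm4c had 365, 381 and 388 in GSK-LSD1 libraries, against 379, 310.2 and 344 in DMSO libraries (log2 fold change 0.14, 95% interval -0.02 to 0.30), with an adjusted p of 0.16, or 0.0445 without DMSO replicate 1.

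Among the H3K4 writers, Kmt2a, Kmt2c, Kmt2d and Setd1b rose, Setd1a fell, and Kmt2b and Setd7 did not pass. Kmt2a (chromosome 9, 44803355 to 44881296) encodes MLL1, the writer cut by leukemia fusions and needed for Hox gene expression. It had 1230.4, 1365 and 1425 normalised counts in GSK-LSD1 libraries, against 1167, 914 and 951 in DMSO libraries (log2 fold change 0.41, SE 0.0662, adjusted p = 4.03e-06). The groups did not overlap, and the gap between the lowest treated library and DMSO replicate 1 was narrow. Kmt2c (chromosome 5, 25271798 to 25498783), which with Kmt2d places H3K4 monomethylation at enhancers, had 853, 903 and 982 in GSK-LSD1 libraries, against 779, 665 and 628 in DMSO libraries (log2 fold change 0.40, adjusted p = 6.96e-06). Kmt2d (chromosome 15, 98831669 to 98871204) had 1924, 1985 and 2166 in GSK-LSD1 libraries, against 1858, 1480.4 and 1495 in DMSO libraries (log2 fold change 0.34, adjusted p = 3.13e-05). For all 3 the highest DMSO value was that of replicate 1, the DMSO library with the flat length profile. With the length trend removed, the log2 fold changes were 0.28, 0.24 and 0.17 (adjusted p = 0.000228, 0.00177 and 0.00865), so the calls held. Without the mean-variance trend Kmt2d did not pass (adjusted p = 0.0534).
Kmt2b, the close relative of Kmt2a with a shorter transcript, had 1288, 1314 and 1317 normalised counts in GSK-LSD1 libraries, against 1384, 1246 and 1199 in DMSO libraries. Its groups overlapped (log2 fold change 0.04, 95% interval -0.07 to 0.15, adjusted p = 0.622). The SETD1 enzymes, which place most H3K4 trimethylation at promoters, had calls of opposite sign. Setd1b had 1018, 1111 and 1130.0 in GSK-LSD1 libraries, against 964, 924 and 799 in DMSO libraries (log2 fold change 0.28, adjusted p = 0.000327). It gave 0.19 with the length trend removed (adjusted p = 0.00857), and its adjusted p was 0.0523 without the mean-variance trend. Setd1a had 1496, 1504 and 1629 in GSK-LSD1 libraries, against 1823, 1663 and 1586 in DMSO libraries, and the groups overlapped (log2 fold change -0.13, adjusted p = 0.0474). The fall of Setd1a was not past the threshold without GSK-LSD1 replicate 1 or 2 (adjusted p = 0.18 and 0.163), without DMSO replicate 1 or 2 (0.29 and 0.0681), with the replicate number as a block (0.0675), with quantile scaling (0.168), with equal totals (0.102) or without the filter on low values (0.0694). Its exons also share 3523 bp with another gene model on the same strand. Setd7, which places monomethylation on H3K4 and on non-histone proteins, had 1929 to 1974 normalised counts in GSK-LSD1 libraries and 1946 to 2134 in DMSO libraries (log2 fold change -0.06, adjusted p = 0.346). With the length trend removed it was lower (-0.13, adjusted p = 0.0159).

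The KDM5 enzymes remove H3K4 di- and trimethylation, which LSD1 cannot do for the trimethylated form. Kdm5b (chromosome 1, 134560171 to 134635285) had 789.6, 774 and 815 normalised counts in GSK-LSD1 libraries, against 900.4, 917 and 911 in DMSO libraries (log2 fold change -0.20, SE 0.0552, adjusted p = 0.00395). Kdm5c (chromosome X, 152233020 to 152274535), the most abundant KDM5 gene per kb of exon, had 2079, 2117 and 2168 in GSK-LSD1 libraries, against 2415, 2438 and 2370.2 in DMSO libraries (log2 fold change -0.18, SE 0.0455, adjusted p = 0.00137). Both fell with no overlap between the groups and in every alternative tried, and with the length trend removed their log2 fold changes were -0.33 and -0.22. Kdm5b is among the longest 10% of genes, of which 12.1% fell. Kdm5a had 1101, 1105 and 1087 in GSK-LSD1 libraries, against 1104, 971 and 1011 in DMSO libraries, with overlap (log2 fold change 0.10, 95% interval -0.02 to 0.21, adjusted p = 0.165). It passed as higher without DMSO replicate 1 (adjusted p = 0.0385) and its estimate was -0.02 with the length trend removed.

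**Figure D4:**
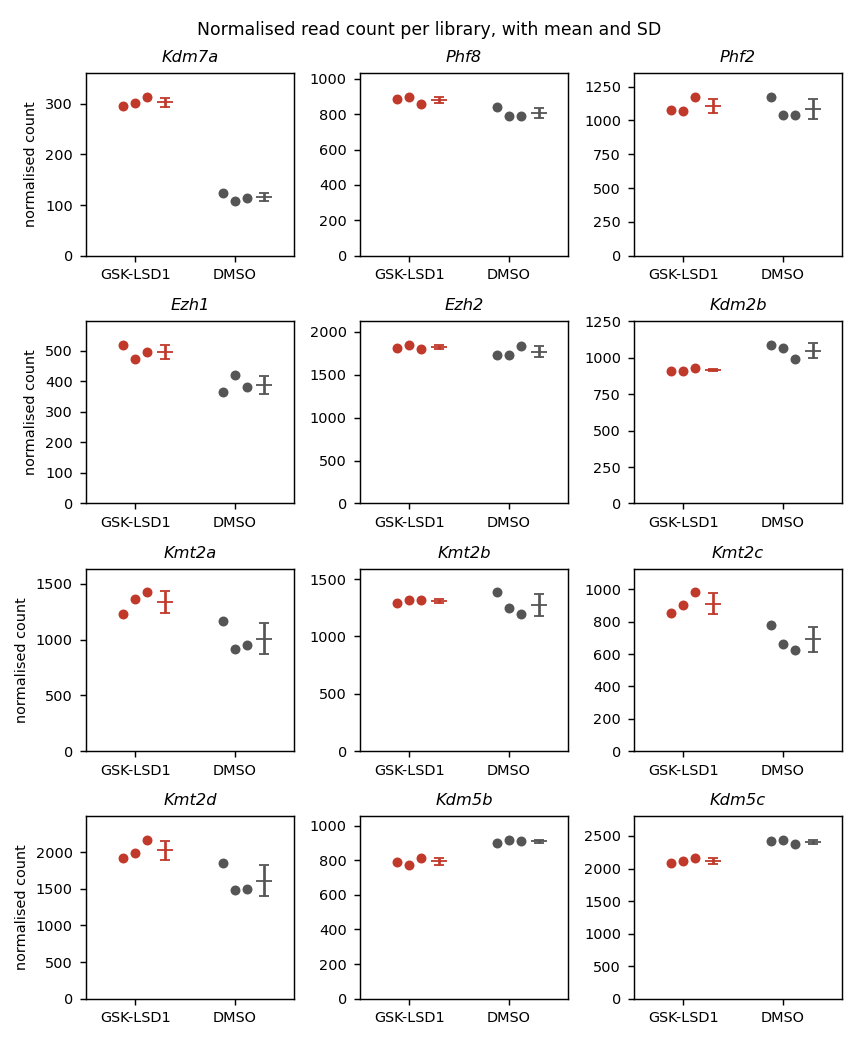
Normalised read count per library (dots) for 12 enzyme genes, GSK-LSD1 left and DMSO right, with the mean and SD of 3 libraries beside the dots and each vertical axis starting at 0. Kdm7a separates the groups by more than a doubling, while DMSO replicate 1, the first DMSO dot, lies nearest to the treated libraries for Kmt2a, Kmt2c and Kmt2d.

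Of the 6 H3K9 writers, Suv39h1 and Suv39h2 fell and the other 4 did not pass. Suv39h1, which places H3K9 trimethylation at pericentric heterochromatin, had 1209, 1259.7 and 1296 normalised counts in GSK-LSD1 libraries, against 1341, 1473 and 1433 in DMSO libraries (log2 fold change -0.17, SE 0.0519, adjusted p = 0.00703). Without GSK-LSD1 replicate 1 its adjusted p was 0.0544. Its relative Suv39h2 had 292, 215 and 242 in GSK-LSD1 libraries, against 299, 271 and 324 in DMSO libraries (log2 fold change -0.26, SE 0.0956, adjusted p = 0.0281). The groups of Suv39h2 overlapped, and its call was lost without GSK-LSD1 replicate 2 or 3 (adjusted p = 0.231 and 0.082) and without DMSO replicate 1 or 3 (0.0539 and 0.136). Exons of both overlap genes on the other strand. Of 24 cell cycle genes listed, 19 fell and 1 rose in the same libraries, while 20.5% of all genes fell and 20.6% rose. The listed genes had a summed value of 67657 to 68123 in GSK-LSD1 libraries and 75006 to 76841 in DMSO libraries, and their part in the values of Suv39h1 and Suv39h2 was not tested.
The euchromatic H3K9 writers Ehmt1 (GLP) and Ehmt2 (G9a) and the SETDB enzymes did not pass. The log2 fold change was 0.09 for Ehmt1 and 0.02 for Ehmt2, with 95% intervals of -0.02 to 0.20 and -0.07 to 0.12. It was 0.11 for Setdb1, the writer recruited by KRAB zinc finger proteins, and -0.18 for Setdb2, and the groups overlapped for neither gene. Their adjusted p-values were 0.121 and 0.1.

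At H3K27, Ezh1 rose and Ezh2 did not pass, and both demethylases rose. Ezh1 and Ezh2 are the alternative catalytic subunits of Polycomb repressive complex 2 (PRC2), and Ezh2 is the form of dividing cells. Ezh1 (chromosome 11, 101191115 to 101226463) had 520.3, 472 and 497 normalised counts in GSK-LSD1 libraries, against 364, 421 and 380.3 in DMSO libraries (log2 fold change 0.35, SE 0.0721, adjusted p = 0.000133). Its call held in every alternative, at 0.31 with the length trend removed. Ezh2 (chromosome 6, 47530139 to 47595341) had 1814, 1849 and 1798 in GSK-LSD1 libraries, against 1734, 1725 and 1838 in DMSO libraries, which overlap (log2 fold change 0.04, 95% interval -0.05 to 0.14, adjusted p = 0.485). Per kb of merged exon, Ezh2 was the more abundant transcript in both groups, with 273 ± 3.9 in GSK-LSD1 libraries and 264 ± 9.35 in DMSO libraries, while Ezh1 had 66.7 ± 3.25 in GSK-LSD1 libraries and 52.2 ± 3.94 in DMSO libraries (SD, n = 3 each).
In the 250 bases before the RefSeq start, Ezh2 holds the NF-Y motif searched above. That motif is present in 11 of the 29 members matched and in 33.8% of all promoters. Ezh1 was not among the members with a match to any motif, and may be missing from the promoters searched.
Kdm6a, an X-linked eraser of H3K27 methylation that is also a subunit of the Kmt2c and Kmt2d complexes, had 1311, 1204 and 1272 normalised counts in GSK-LSD1 libraries, against 1189, 1043 and 1118 in DMSO libraries (log2 fold change 0.18, adjusted p = 0.00907). Kdm6b, an eraser induced by inflammatory signals in macrophages, had 856, 857 and 846 in GSK-LSD1 libraries, against 830.1, 743 and 661 in DMSO libraries (log2 fold change 0.20, adjusted p = 0.0112). In both, all treated libraries lay above all DMSO libraries, by a narrow margin in each. The call of Kdm6a was lost without GSK-LSD1 replicate 1 (adjusted p = 0.0673) or DMSO replicate 2 (0.0816), and that of Kdm6b without DMSO replicate 3 (0.121). With the length trend removed they were 0.13 and 0.17 (adjusted p = 0.0496 and 0.0277).

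The H3K36 writers Setd2, Nsd1 and Ash1l rose, and the calls of the longer transcripts, Nsd1 and Ash1l, were lost with the length trend removed. Setd2, the enzyme for H3K36 trimethylation along transcribed genes, had 2226, 2231 and 1988 normalised counts in GSK-LSD1 libraries, against 1957, 1692 and 1879 in DMSO libraries (log2 fold change 0.22, SE 0.0537, adjusted p = 0.00103). Nsd1, which places H3K36 dimethylation, had 2166, 2178 and 2271 in GSK-LSD1 libraries, against 2009.8, 1754 and 1991 in DMSO libraries (log2 fold change 0.20, adjusted p = 0.00143). Ash1l, which also dimethylates H3K36, had 709, 697 and 682 in GSK-LSD1 libraries, against 611, 613 and 573 in DMSO libraries (log2 fold change 0.22, adjusted p = 0.00404). In all 3 genes the groups were separate. With the length trend removed, Setd2 was still higher (0.15, adjusted p = 0.0182), whereas Nsd1 (0.06, adjusted p = 0.324) and Ash1l (0.10, adjusted p = 0.209) did not pass. Ash1l shares 352 bp of exon with Dap3 on the other strand, which fell (log2 fold change -0.23, limma adjusted p = 0.00899).
The closest relatives of Nsd1, which were not among the members, did not pass. Whsc1 (NSD2) had 2187, 2255 and 2303 normalised counts in GSK-LSD1 libraries, against 2160.2, 2176 and 2090.4 in DMSO libraries (0.07 on the log2 scale, limma adjusted p = 0.233). Whsc1l1 (NSD3) had 1191, 1226 and 1253 in GSK-LSD1 libraries, against 1211, 1111 and 1191 in DMSO libraries, and its groups overlapped (0.06 on the log2 scale, limma adjusted p = 0.35).
The erasers of H3K36 dimethylation differed in call. Kdm2b, which brings a variant Polycomb complex (PRC1.1) to CpG islands, had 912, 911 and 927 normalised counts in GSK-LSD1 libraries, against 1089.9, 1065 and 990.5 in DMSO libraries (log2 fold change -0.19, SE 0.0546, adjusted p = 0.00445). Its fall held in every alternative, at -0.27 with the length trend removed. Its relative Kdm2a had 1841, 1893 and 1829.7 in GSK-LSD1 libraries, against 1685, 1684 and 1779.9 in DMSO libraries, without overlap (log2 fold change 0.11, 95% interval 0.02 to 0.21, adjusted p = 0.0567). Its adjusted p was 0.0183 without DMSO replicate 3 and 0.0141 with quantile scaling, and its estimate was -0.00338 with the length trend removed.

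Of the enzymes for other lysines or with debated substrates, Kdm8 fell and the others did not pass. Dot1l, the H3K79 writer on which KMT2A-fusion leukemias depend, had 1245 to 1265 normalised counts in GSK-LSD1 libraries and 1151 to 1391 in DMSO libraries (log2 fold change -0.05, 95% interval -0.17 to 0.07, adjusted p = 0.496), and was lower without DMSO replicate 3 (adjusted p = 0.0263). Setd8, the H4K20 monomethylase, had 2445 to 2499 in GSK-LSD1 libraries and 2470.3 to 2495 in DMSO libraries, with a 95% interval of the log2 fold change of -0.09 to 0.09. Kmt2e, a KMT2 relative without known activity of its own on histones, differed by 0.07 on the log2 scale (adjusted p = 0.235), without overlap, and its exons share 972 bp with Srpk2 on the other strand, which rose (log2 fold change 0.57). Kdm8, a JmjC protein whose main substrates are debated, had 110.2, 109 and 119 normalised counts in GSK-LSD1 libraries, against 151, 143 and 124 in DMSO libraries (log2 fold change -0.30, SE 0.118, adjusted p = 0.0372). That fall was lost without GSK-LSD1 replicate 1 or 2 (adjusted p = 0.0892 and 0.101), without DMSO replicate 1 or 2 (0.151 and 0.1), with equal totals (0.054), without the filter on low values (0.0539) and with the length trend removed (0.0914). The SMYD enzymes, which also methylate non-histone proteins, did not pass, with log2 fold changes of -0.17 for Smyd2, 0.16 for Smyd3 and -0.15 for Smyd5 (adjusted p = 0.0602, 0.25 and 0.0516). Smyd5 passed as lower without GSK-LSD1 replicate 1 (adjusted p = 0.0277), without DMSO replicate 3 (0.016) and with the length trend removed (0.0299).

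Levels per kb of merged exon, the scale on which genes can be compared, spanned from Setd8 at the top to Smyd3 and Kdm7a at the bottom. The normalised count per kb of Setd8 was 466 ± 5.09 in GSK-LSD1 libraries and 467 ± 2.4 in DMSO libraries, followed by Ehmt2 with 372 ± 4.3 in GSK-LSD1 libraries and 366 ± 18.5 in DMSO libraries (SD, n = 3 each). The third was Kdm5c with 298 ± 6.3 in GSK-LSD1 libraries and 339 ± 4.83 in DMSO libraries, which stood above Ezh2 in both groups. Ezh2 and Suv39h1 were within their spread of each other in DMSO libraries, where Suv39h1 had 269 ± 12.9. Kdm7a was the lowest of the 40 in DMSO libraries and the next to lowest in GSK-LSD1 libraries, with 30.2 ± 0.893 in GSK-LSD1 libraries and 11.5 ± 0.801 in DMSO libraries, and Smyd3 had 17.5 ± 1.48 in GSK-LSD1 libraries and 15.6 ± 1.55 in DMSO libraries. In GSK-LSD1 libraries the level of Kdm7a was below that of Phf8 (94.4 per kb) and of Phf2 (201 per kb). Merged exon length counts exons that these cells may not use, which lowers the level per kb of genes with many transcripts.

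**Figure D5:**
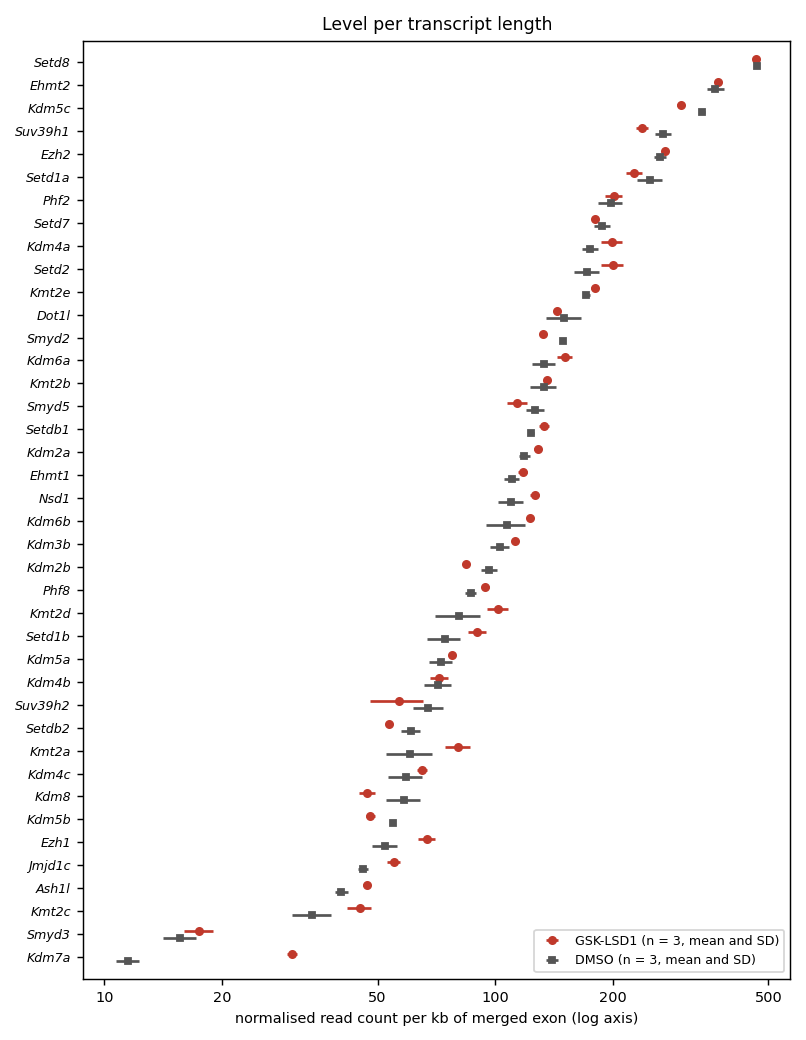
Normalised read count per kb of merged exon for the 40 enzyme genes on a log axis, ordered by the DMSO mean. Circles are GSK-LSD1 and squares DMSO, each the mean of 3 libraries with SD. Setd8, Ehmt2 and Kdm5c are highest, and Kdm7a is the 1 gene whose symbols lie far apart.

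The partner subunits of these enzymes were read from a list of 53 genes, of which 50 were tested: 10 rose, 13 fell and 27 did not pass. These are 20% and 26% of them, against 20.6% and 20.5% of all genes tested, so the share that rose was near that of all genes. Their median log2 fold change was -0.03, against -0.01 over all genes. The genes listed around Dot1l, from its own complex or from elongation complexes, had 5 rises among 7 genes and no fall. Mllt3 (AF9) had 104 ± 17.5 normalised counts in GSK-LSD1 libraries and 68.2 ± 10.1 in DMSO libraries (SD, n = 3 each; 0.60 on the log2 scale, limma adjusted p = 0.00156). Aff4 had 3618 ± 62.2 in GSK-LSD1 libraries and 2737 ± 204 in DMSO libraries (0.40, limma adjusted p = 1.51e-08). Aff1 and Mllt6 rose by 0.37 each on the log2 scale, as did Aff3. Of 15 subunits of the H3K4 writer complexes (COMPASS), 6 fell, 1 (Bod1l) rose and 8 did not pass. How far the trend with length enters these counts by complex was not tested. Hcfc2 fell, with 165 ± 12.9 normalised counts in GSK-LSD1 libraries and 220.0 ± 20.2 in DMSO libraries, and Dpy30 and Cxxc1 fell by 0.28 and 0.20 on the log2 scale. Men1, which encodes menin, the cofactor that ties KMT2A to chromatin, fell to 979 ± 13.7 in GSK-LSD1 libraries, against 1189.8 ± 77.7 in DMSO libraries (limma adjusted p = 8.35e-05). Among the core subunits, Dpy30 fell as given above, while Wdr5, Rbbp5 and Ash2l did not pass.
Around PRC2, Eed rose to 966 ± 16.3 in GSK-LSD1 libraries, against 823 ± 28.7 in DMSO libraries, while Suz12 and Aebp2 fell by 0.16 and 0.15 on the log2 scale. Of 9 PRC2 genes tested, 6 did not pass. Of 9 genes of the Kdm2b complex PRC1.1, Rnf2 rose (log2 fold change 0.27), Pcgf1, Yaf2 and Skp1a fell and 5 did not pass. Of 10 partners of the H3K9 enzymes, Atf7ip and Zfp644 rose, Cdyl and Trim28 fell and 6 did not pass. The number of partner genes that fell was 8 without GSK-LSD1 replicate 1 and 7 without the mean-variance trend in the test.
Of 24 further lysine methylation enzymes listed, 19 were matched to rows, 18 were tested and the others were not analysed here: 2 rose, 2 fell and 14 did not pass. The shares were 11.1% in each direction, against 20.6% and 20.5% of all genes tested. Prdm2, a SET-domain H3K9 methyltransferase, rose to 887 ± 14.7 normalised counts in GSK-LSD1 libraries, against 615 ± 30.5 in DMSO libraries (log2 fold change 0.53, limma adjusted p = 3.22e-09). Jmjd6, a JmjC protein best known as a lysine hydroxylase, fell to 412 ± 7.99 in GSK-LSD1 libraries, against 578 ± 14.6 in DMSO libraries (log2 fold change -0.49, limma adjusted p = 1.59e-07). The H4K20 writer Suv420h1 rose by 0.20 on the log2 scale, and Setd6 fell by 0.29. The rise count was 1 without GSK-LSD1 replicate 2 or 3, and the fall count was 1 without GSK-LSD1 replicate 1, DMSO replicate 1 or DMSO replicate 2.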

How the data were processed

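The authors deposited 1 table of normalised read counts, a signal (1 value for each symbol in each of the 6 libraries). Judged by the values, each is a gene's read count scaled by 1 factor per library: in every deposited column all values lay within 0.1 of a whole multiple of the smallest. The submitters' processing notes list STAR, DESeq2, mm10 and GRCm38, giving neither role nor version. How reads were counted, with which annotation and strand setting, is not given in the sources used here. Because 2 columns have a step close to 1, count models were not run. Genes with a value of at least 10 in at least 3 of 6 libraries were tested with limma 3.58.1 (R 4.3.3) on log2(value + 1), GSK-LSD1 against DMSO, with a mean-variance trend and without a replicate block. Two-sided p-values were adjusted by Benjamini-Hochberg across the 11588 genes that passed, and 0.05 was the threshold. Fold changes on this scale understate those of low genes.

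The members and gene lists were chosen with earlier results of these data known. Members past the threshold, and close relatives of them, are given by library. From each partner list and the list of further enzymes, up to 4 genes per direction with the largest change past the threshold were eligible for naming. Aff3, Wdr5, Rbbp5, Ash2l, Whsc1 and Whsc1l1 fall outside that rule, and their values were known when they were chosen. Exon lengths, positions and overlaps are from GENCODE M21 (GRCm38), in which 11486 of the 11588 tested genes had a length. Promoters are from RefSeq (GRCm38.p6), in which 29 members matched. Libraries of a group differed by more than sampling noise (chi-square per degree of freedom 1.57 to 1.86 among GSK-LSD1 and 2.52 to 3.51 among DMSO libraries). Alternatives were other pseudocounts, filters, scalings, no mean-variance trend, a replicate block and leaving out each library, and, added after the values were seen, removal from each library of a loess curve (span 0.3) of its log2 deviations on length.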

Additional observations from a re-analysis of the deposited data

How the results depend on the processing

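Kdm7a, Kmt2a, Kmt2c and Ezh1 were higher and Kdm5b, Kdm5c and Kdm2b lower past the threshold in all 15 alternatives, so 7 of the 21 calls among members held throughout. The count of members that rose was 6 (15%) without the mean-variance trend, against 17.3% of all genes, 10 with the length trend removed, against 20.3%, and 11 to 17 (27.5% to 42.5%) when single libraries were left out, against 17.7% to 20.4%. The count that fell was 4 to 8 when single libraries were left out (10% to 20%, against 16.9% to 19.8% of all genes). The median log2 fold change of the members was 0.113 with equal totals, 0.0183 with the length trend removed and 0.0623 to 0.106 when single libraries were left out. Without the mean-variance trend 7 partner genes fell, and of the further enzymes 1 rose and 1 fell; with the length trend removed 1 of these rose. Leaving out single libraries, 8 to 12 partner genes fell, and 1 to 2 further enzymes rose and 1 to 2 fell. Members near 0 changed sign in some settings, without passing the threshold there. Setd8 gave 0.0249 with quantile scaling and 0.0157 with equal totals, and Kdm4b -0.00738 with quantile scaling. With the length trend removed Kmt2b gave -0.0256, Kmt2e -0.000271, Kdm2a -0.00338 and Kdm5a -0.0171. Leaving out single libraries gave -0.0113 to 0.00438 for Setd8, -0.0566 to 0.0523 for Kdm4b, -0.0077 to 0.0959 for Kmt2b, -0.0135 to 0.0593 for Ehmt2 and -0.0104 to 0.0875 for Phf2. The cause of these shifts was not tested. Same-numbered libraries did not deviate together (correlations of -0.0241, -0.0276 and -0.00775), so the numbers were not taken as pairs; with a replicate block 14 members rose and 6 fell, Setd1a (-0.13) being the call that was lost. At these depths, members with low values such as Kdm8 and Smyd3 had standard errors of 0.118 and 0.111 on the log2 scale.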
